A study of Mus musculus with 16 samples.

Results

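The genotype by overload interaction asks, gene by gene, how far the response of plantaris muscle to mechanical overload differs between animals that lack TRIM28 in muscle and wild types. It is the difference of 2 differences, (KO MTE minus KO Sham) minus (WT MTE minus WT Sham), on the log2 scale, and it was tested in 17212 of the 17230 genes of the deposited count table. A value above 0 means that the KO response was the higher one, and a value below 0 that it was the lower one. Plantaris is a hindlimb muscle that flexes the ankle. RNA was taken from mice of 9 to 12 weeks in 4 groups: KO (labelled TRIM28 mKO, a Trim28 knockout) after myotenectomy (MTE, n = 4), KO after Sham surgery (n = 3), WT after MTE (n = 4) and WT after Sham surgery (n = 4). Myotenectomy cuts away part of a synergist muscle with its tendon, so that the plantaris carries more load. All groups were operated on, and the sources used here do not give the promoter or cells of the Trim28 deletion or the time from surgery to sampling. The labels describe 16 samples, and 15 libraries were analysed. Whether each library stands for a mouse of its own is not stated, and the p-values cover the spread between these libraries, which may be technical.

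TRIM28 is a corepressor. Zinc finger proteins of the KRAB class bring it to DNA, and it recruits enzymes that place repressive histone marks on retroelements and on some genes. Muscle under overload grows, makes extracellular matrix, shifts metabolism and contractile protein types, and draws in immune cells. The interaction separates what TRIM28 loss does to that response from what it does to muscle at any load.

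Libraries held 21.1 M to 69.2 M counts. Genes of fast muscle fibres were abundant in every group, with summed levels over 15 genes between 46670 and 121100 CPM (counts scaled to a common library size), and no gene of that list or of the slow fibre list was at 0 in any library. Of the libraries, 2 stood apart from their groups, and both were Sham libraries, on which the interaction rests directly. WT Sham 1 averaged 6.06 log2 CPM over 24 macrophage markers, against 2.68 to 3.05 log2 CPM in the other WT Sham libraries. KO Sham column 3 had 20.5% of its counts on mitochondrially encoded genes, while KO Sham columns 1 and 2 had 11.3% and 12.2%. Values without these 2 libraries are given beside the lists described, and beside a gene where they end a p under 0.05 or move a value by over 1.5 times. List members given for contrast are left out of this rule. In whole muscle, fewer cells of a type and less RNA per cell cannot be told apart.

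Trim28 itself was at 30.3, 25.2, 18.0 and 24.8 CPM in KO MTE and at 12.7, 11.6 and 5.39 CPM in KO Sham, against 60.9, 51.9, 47.3 and 35.3 CPM in WT MTE and 49.0, 27.8, 36.1 and 30.1 CPM in WT Sham. Every KO Sham library lay below every WT Sham library and every KO MTE library below every WT MTE library, as the genotype labels say. The genotypes differed by -1.84 in Sham muscle (edgeR adjusted p = 0.0101). In MTE muscle the difference was -0.99 and not called (edgeR adjusted p = 0.0822). Trim28 reads remained in each KO library. Trim28 rose with overload in KO (log2 1.30, SE 0.29, edgeR adjusted p = 0.00684). In WT the difference was 0.45 (adjusted p = 0.224). The interaction was 0.85 (95% interval 0.02 to 1.67). Without KO Sham column 3 and WT Sham 1 it was 0.40, and the interval then held 0.

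No gene passed the threshold for the interaction by edgeR's quasi-likelihood test, a call being a Benjamini-Hochberg adjusted p under 0.05 over all genes tested (0 of 17212, percent called 0.0). The smallest adjusted p was 0.662, of Tspan13. At an unadjusted p under 0.05 there were 605 genes, 3.51% of those tested: 321 (1.86%) above 0 and 284 (1.65%) below 0. DESeq2 called 10 genes (0.0588%), all above 0, and had 658 (3.87%) at an unadjusted p under 0.05. The limma voom fit called 0, with 527 (3.06%) at an unadjusted p under 0.05. With sample quality weights voom called 0 and had 1459 (8.48%) at that p, and edgeR with 1 surrogate variable called 0 and had 1037 (6.02%). In the authors' deposited table, the interaction p of a 2-way analysis of variance was under 0.05 for 733 of 17217 genes (4.26%), of which 483 were among the 605, and 0 stayed under 0.05 when these p were adjusted here. Below, the 95% interval of an interaction is edgeR's, for 1 gene at a time, and one that leaves out 0 has an unadjusted p under 0.05. None of the genes named passed edgeR's adjusted threshold with all libraries.

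The 2 responses shared most of their called genes. Overload changed 4454 genes in KO (25.9% of those tested), 2274 higher (13.2%) and 2180 lower (12.7%), and 4355 in WT (25.3%), 2435 higher (14.1%) and 1920 lower (11.2%). The lists shared 2944 genes, 66.1% of the KO list and 67.6% of the WT list, and each of the 2944 moved the same way in both, 1621 higher and 1323 lower. These comparisons share no library. Across genes, which are not independent replicates, the log2 responses of KO and WT correlated with Pearson's r of 0.776 and Spearman's rho of 0.809. For the genes in both lists the median ratio of KO to WT response was 1.02. A gene picked by its call in one genotype tended to have the smaller response in the other, whichever genotype was used to pick: this held for 68.5% of the KO calls and 63.9% of the WT calls. Of the 17212 genes, 7869 (45.7%) had a 95% interval of the interaction that lay inside a 2-fold difference either way, and of the 2944 shared genes 1663 (56.5%) did. For the others these libraries do not exclude a difference larger than 2-fold, and the median SE of the interaction was 0.367 on the log2 scale.

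The genes at an interaction p under 0.05 were sorted by their overload calls. The calls and the interaction come from the same group means, so some classes can hardly occur, and the sorting is a description. Of the 321 above 0, 122 were called higher in KO and not called in WT, 70 were called lower in WT and not called in KO, and 41 were called higher in both. The other 88 comprised 10 genes called lower in both and 78 called in neither. Of the 284 below 0, 88 were called higher in WT and not called in KO, 70 were called lower in KO and not called in WT, and 37 were called higher in both. Another 10 were called lower in both and 79 in neither. A call in one genotype alone did not by itself mark a different response: of the 1510 genes called in KO alone, 192 (12.7%) had an interaction p under 0.05, and of the 1411 called in WT alone, 158 (11.2%) did. By biotype, protein-coding genes made up 80.2% of the 605 genes and 82.7% of all genes tested, and lincRNAs 4.63% and 2.53%.

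**Figure D1:**
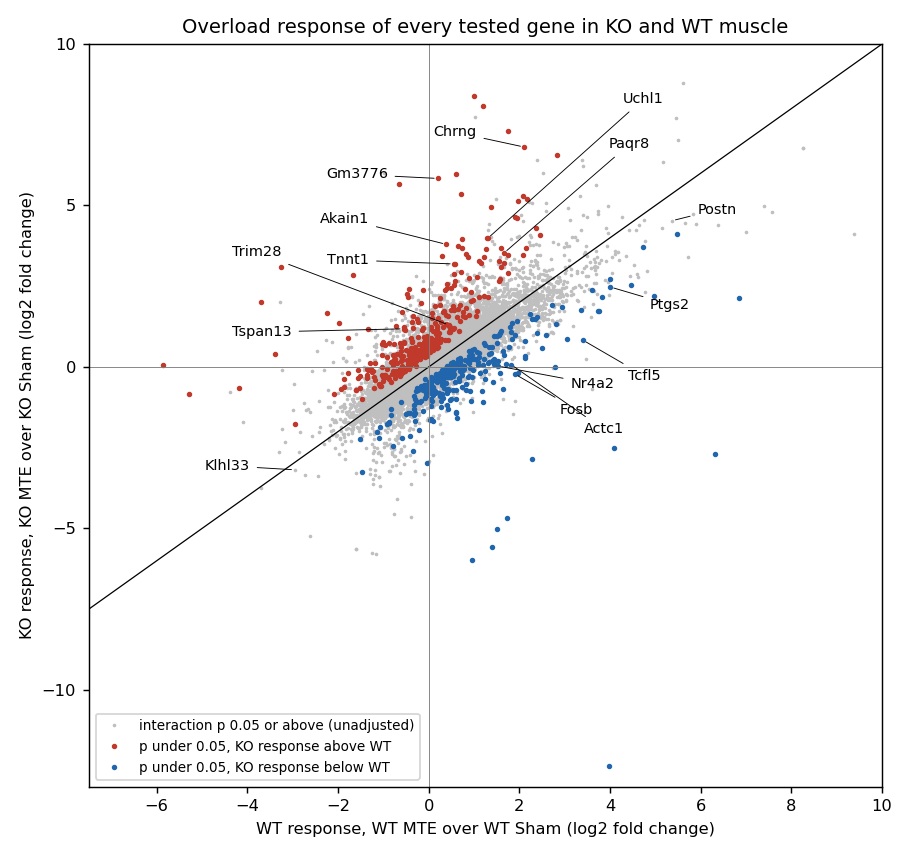
Each point is 1 tested gene, with its overload response in KO on the vertical axis and in WT on the horizontal axis (log2 fold changes, edgeR), and the line marks equal responses. Red and blue points are the 321 genes above and the 284 below the line at an unadjusted interaction p under 0.05; the 15 named genes include Postn and Klhl33, whose points lie among the genes without such a p.

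Most genes that led the higher side were called higher with overload in KO, and some of them also in WT with a smaller fold change. Tspan13, a tetraspanin membrane protein, was at 69.7, 120.2, 116 and 146 CPM in KO MTE and at 48.2, 45.8 and 55.5 CPM in KO Sham, against 19.3, 27.6, 20.2 and 18.1 CPM in WT MTE and 29.0, 38.7, 27.6 and 29.7 CPM in WT Sham. The KO MTE values lay above all others, and the WT MTE values lay at or below those of WT Sham. Tspan13 rose in KO (1.18, SE 0.22, adjusted p = 0.0026), its WT response was -0.55 (adjusted p = 0.0564), and the interaction was 1.73 (95% interval 1.10 to 2.37). DESeq2 gave it an adjusted p of 0.000557. When KO MTE 1, its lowest KO MTE library, was left out, edgeR called it too (adjusted p = 0.0297), the only gene called under any left-out library.

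Uchl1, a deubiquitinating enzyme best known from neurons, was at 21.4, 34.2, 27.6 and 45.5 CPM in KO MTE and at 2.83, 2.30 and 0.735 CPM in KO Sham, against 7.69, 6.29, 8.51 and 5.02 CPM in WT MTE and 3.99, 1.97, 2.73 and 2.47 CPM in WT Sham. It rose in both genotypes, by 3.98 in KO (adjusted p = 9.89e-05) and 1.30 in WT (adjusted p = 0.0114), and the Sham values overlapped between genotypes. The interaction was 2.68 (95% interval 1.61 to 3.75). Fbxl2, the substrate-binding part of a ubiquitin ligase, was at 6.26 to 13.1 CPM in KO MTE and 1.27 to 1.59 CPM in KO Sham, against 3.06 to 3.84 CPM in WT MTE and 1.22 to 2.45 CPM in WT Sham. Its interaction was 1.73 (95% interval 0.94 to 2.53). Paqr8, a membrane progesterone receptor, showed the same order of groups, at 10.2 to 27.9 CPM in KO MTE and 1.53 to 1.67 CPM in KO Sham, against 5.13 to 9.78 CPM in WT MTE and 1.89 to 2.74 CPM in WT Sham. Its interaction was 1.87 (95% interval 1.00 to 2.74). In these 3 genes the KO MTE and WT MTE libraries did not overlap.

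Gsto1, a glutathione transferase of the omega class, was at 50.7, 65.9, 60.8 and 66.3 CPM in KO MTE and at 26.9, 32.2 and 30.7 CPM in KO Sham, against 24.8, 21.8, 26.6 and 27.4 CPM in WT MTE and 19.3, 22.2, 25.2 and 23.6 CPM in WT Sham. It rose in KO (1.03, adjusted p = 0.000361), and its WT response was 0.16 (adjusted p = 0.386). Fam171b rose in both, by 3.28 in KO (adjusted p = 9.89e-05) and 1.56 in WT (adjusted p = 0.00158), with an interaction of 1.72 (95% interval 0.81 to 2.62). Akain1, which binds the regulatory subunit of protein kinase A, rose in KO by 3.79 (adjusted p = 0.000393) and had a WT response of 0.39 (adjusted p = 0.582). Gm3776, a predicted gene that DESeq2 also called, spread widely in KO MTE, at 1.59, 4.97, 31.1 and 61.8 CPM, and was at 0.177 to 0.752 CPM in KO Sham, against 0.150 to 0.332 CPM in WT MTE and 0.126 to 0.266 CPM in WT Sham. The interval of its interaction held 0 without KO Sham column 3 and WT Sham 1. Whether its reads are shared with a near-identical gene was not tested. The lincRNA gene Gm13387 was at 1.59 to 2.16 CPM in KO MTE and 0.490 to 0.835 CPM in KO Sham, against 0.545 to 0.878 CPM in WT MTE and 0.587 to 0.851 CPM in WT Sham.

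For Cyb5r1, Sbk2 and Ivd the Sham level or the WT response carried part of the difference. Cyb5r1, a cytochrome b5 reductase, had the smallest interaction p of the genes printed from the authors' deposited table, 4.49e-06. It was at 38.9, 43.2, 43.8 and 42.8 CPM in KO MTE and at 32.0, 33.7 and 31.5 CPM in KO Sham, against 39.2, 36.8, 38.6 and 37.7 CPM in WT MTE and 42.7, 47.6, 41.6 and 43.5 CPM in WT Sham. The group means crossed: KO MTE lay above KO Sham and WT MTE below WT Sham, each without overlap, and the interaction was 0.58 (95% interval 0.31 to 0.86). Sbk2, a protein kinase gene, was at 14.4 to 27.1 CPM in KO MTE and 8.19 to 9.11 CPM in KO Sham, against 12.4 to 19.1 CPM in WT MTE and 14.7 to 20.5 CPM in WT Sham. The KO and WT Sham groups differed by -1.04 (adjusted p = 0.0495), and the MTE groups by 0.28 (adjusted p = 0.588). Ivd, the isovaleryl-CoA dehydrogenase of leucine breakdown, was at 59.9 to 78.0 CPM in KO MTE and 70.2 to 88.0 CPM in KO Sham, against 39.3 to 54.5 CPM in WT MTE and 82.5 to 90.7 CPM in WT Sham. It fell in WT (-0.97, adjusted p = 0.000126), while the KO response was -0.24 (adjusted p = 0.188). Cxcr6, a chemokine receptor of T cells and natural killer cells, was at 1.19 to 4.31 CPM in KO MTE and 0.127 to 0.184 CPM in KO Sham, against 0.617 to 0.782 CPM in WT MTE and 0.147 to 0.931 CPM in WT Sham, where WT Sham 1 was the highest. Its interaction was 3.24 with all libraries and 2.48 without WT Sham 1.

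**Figure D2:**
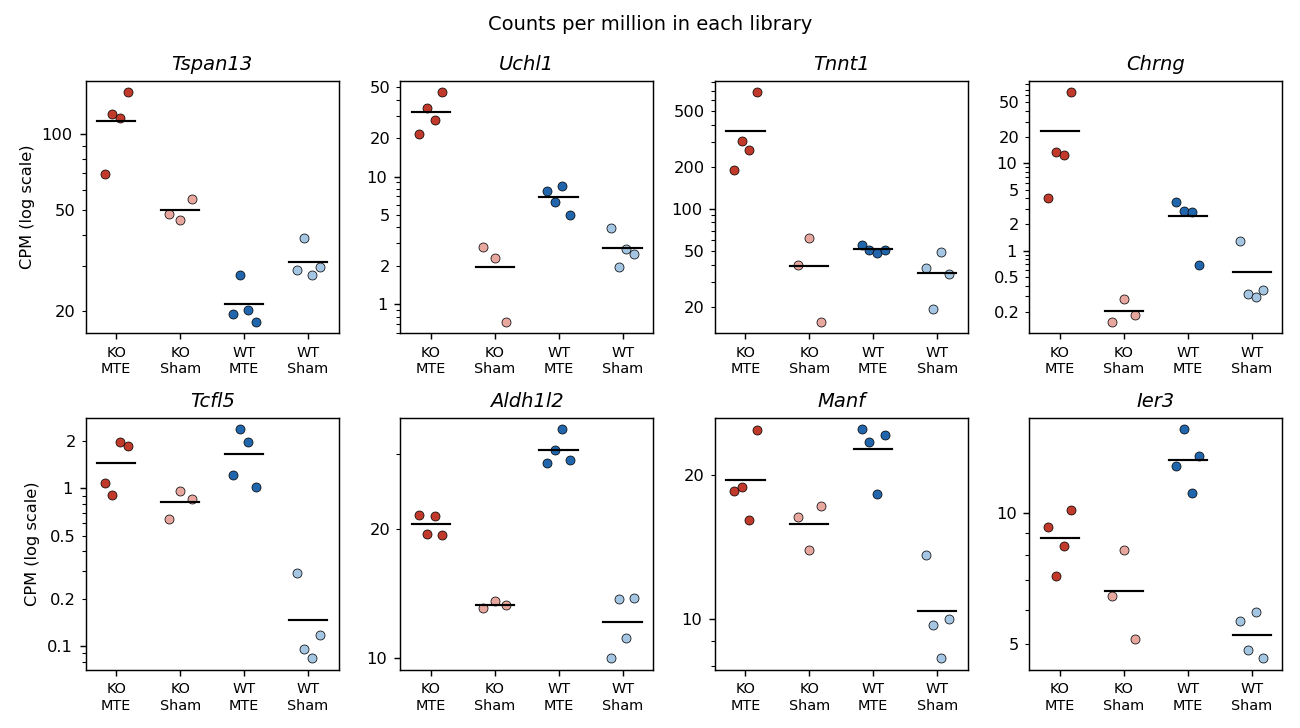
CPM, counts scaled to a common library size (log scale, a separate scale for each gene) of 8 named genes, with 1 point per library and a bar at the group mean. In Tspan13, Uchl1 and Tnnt1 every KO MTE point lies above every other point, while in Tcfl5, Manf and Ier3 the KO MTE and KO Sham points lie closer together than the WT MTE and WT Sham points.

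Genes of the neuromuscular junction and of denervated muscle held 4 of the genes above 0 and none below. The nicotinic acetylcholine receptor of muscle is built from 5 subunits. The gamma subunit belongs to the fetal and denervated form, and epsilon replaces it in innervated adult fibres. Of 23 members tested, 9 rose and 1 fell with overload in KO, and 4 rose and 2 fell in WT. Of all genes tested, 13.2% rose and 12.7% fell in KO, and 14.1% rose and 11.2% fell in WT. At an interaction p under 0.05, 1.86% of all genes lay above 0. The median response was 0.41 in KO and 0.08 in WT, and the median interaction 0.57, beside -0.01 over all genes tested. Members of a list are not independent replicates, so for this and some other lists the spread of the median over libraries is given. With 1 library left out at a time the median interaction ran from 0.26 to 0.66. Its jackknife SE, a standard error from these left-out fits, was 0.44. Above 0 were 19 of 23 members (82.6%, beside 48.4% of all genes). Without KO Sham column 3 and WT Sham 1 the median was 0.19, 16 of 23 lay above 0, and 3 did so at p under 0.05.

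Chrng, the gamma subunit, was at 4.01, 13.6, 12.4 and 64.8 CPM in KO MTE and at 0.155, 0.278 and 0.184 CPM in KO Sham, against 3.66, 2.85, 2.80 and 0.685 CPM in WT MTE and 1.30, 0.322, 0.294 and 0.352 CPM in WT Sham. All KO MTE libraries lay above all WT MTE libraries, and KO MTE 4 was far above the rest. Chrng rose in KO by 6.81 (SE 1.08, adjusted p = 0.000923), and its WT response was 2.10 (SE 0.78, adjusted p = 0.0611). The interaction was 4.71 (95% interval 2.02 to 7.40) and 3.47 without KO MTE 4. Chrnd, the delta subunit, was at 7.66, 15.7, 23.2 and 60.7 CPM in KO MTE and at 3.43 to 4.96 CPM in KO Sham, against 3.08 to 6.76 CPM in WT MTE and 1.97 to 3.48 CPM in WT Sham, with an interaction of 1.85 (95% interval 0.34 to 3.36). That value was 1.07 without KO MTE 4, and 1.63 without the 2 Sham libraries.

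The beta subunit gene Chrnb1 rose in KO (1.28, adjusted p = 0.00316), with a WT response of 0.45 (adjusted p = 0.162) and an interaction of 0.84 (95% interval 0.13 to 1.54). Musk, the receptor kinase that gathers acetylcholine receptors under the nerve, rose in KO (0.84, adjusted p = 0.0285), with a WT response of 0.09 (adjusted p = 0.818) and an interaction of 0.75 (95% interval 0.01 to 1.48), or 0.48 without KO MTE 4. The intervals of Chrnd, Chrnb1 (0.60) and Musk (0.55) held 0 without KO Sham column 3 and WT Sham 1. The alpha subunit gene Chrna1 had an interaction of 0.62 (95% interval -0.68 to 1.91), and the epsilon subunit gene Chrne one of 0.22 (-0.41 to 0.85). Myog, the myogenic regulator that is known to drive receptor genes after denervation, rose in KO (2.22, adjusted p = 0.00389) and in WT (2.04, adjusted p = 0.0024), and its interaction interval ran from -1.05 to 1.40. The interaction itself was 0.18, and -0.16 without the 2 Sham libraries.

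Myogenic regulators of the helix-loop-helix family bind E-boxes, and CAGCTG is one such sequence. The 250 bases before the RefSeq start of Chrng are shown because this gene had the largest interaction of the list (RefSeq, GRCm38.p6, chr1:87205561-87205810, plus strand, 5′ to 3′). Capitals mark the 2 matches to CAGCTG, which begin 155 and 132 bases before the start.
Chrng: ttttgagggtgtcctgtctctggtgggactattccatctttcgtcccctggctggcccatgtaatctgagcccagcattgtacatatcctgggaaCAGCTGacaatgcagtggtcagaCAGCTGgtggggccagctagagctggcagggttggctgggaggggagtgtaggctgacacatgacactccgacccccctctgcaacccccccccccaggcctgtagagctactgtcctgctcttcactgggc
CAGCTG reads the same on both strands, and it occurred in 13.0% of 32851 RefSeq promoter windows of this length. Of the 23 members of the list, 17 matched a window by symbol and 7 of these held it, Chrng and Musk among them.

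Slow and fast fibre genes gave a mixed picture. The 3 slow troponin genes had interactions above 0 at p under 0.05, while slow myosin did not. Tnnt1, slow troponin T, was at 188, 307, 261 and 678 CPM in KO MTE and at 39.7, 62.3 and 15.7 CPM in KO Sham, against 55.1, 51.2, 48.1 and 51.3 CPM in WT MTE and 37.8, 19.4, 48.9 and 34.3 CPM in WT Sham. The KO MTE values lay above all others, KO Sham column 3 was the lowest of all, and the interaction was 2.64 (95% interval 1.31 to 3.96), or 2.25 without KO Sham column 3 and WT Sham 1. Tnni1, slow troponin I, and Tnnc1, slow troponin C, rose in both genotypes. Tnni1 rose by 3.45 in KO and 1.75 in WT (adjusted p = 0.00134 and 0.0167), with an interaction of 1.70 (95% interval 0.19 to 3.21). Tnnc1 rose by 3.68 in KO and 2.14 in WT (adjusted p = 0.000361 and 0.00187), with an interaction of 1.54 (95% interval 0.30 to 2.79). Without the same 2 libraries the values were 1.08 and 1.12. The slow myosin heavy chain gene Myh7 had a response of -0.95 in KO and -0.79 in WT, neither called, and an interaction of -0.15 (95% interval -1.71 to 1.41). The slow list as a whole had 3 of 12 members above 0 at p under 0.05, beside 1.86% of all genes, and none below 0. Its median was 0.21, and -0.13 without the 2 libraries.

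Among 15 fast fibre genes, 6 fell in KO and 9 in WT, beside 12.7% and 11.2% of all genes. Of the 15, 13 had an interaction above 0, 3 of them at p under 0.05, beside 48.4% and 1.86% of all genes. Actn3, the alpha-actinin of fast fibres, fell in WT (-1.25, adjusted p = 0.00602), and its KO response was -0.17 (adjusted p = 0.70), for an interaction of 1.08 (95% interval 0.18 to 1.99), and 0.73 without the 2 libraries, where the interval held 0. Myoz1, a Z-disc protein, fell in both, by 0.65 in KO (adjusted p = 0.0108) and 1.21 in WT (adjusted p = 0.000112), with an interaction of 0.56 (95% interval 0.09 to 1.03). Tnnc2, fast troponin C, had an interaction of 0.69 (95% interval 0.14 to 1.23). The list's median was 0.31 and, without the 2 libraries, 0.15. Summed over the list, fast fibre genes were at 46670 to 66400 CPM in KO MTE and 74650 to 84390 CPM in KO Sham, against 55900 to 75670 CPM in WT MTE and 98760 to 121100 CPM in WT Sham.

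Most genes that led the lower side were called higher with overload in WT, and for several the KO Sham level lay above the WT Sham level. Tcfl5, a helix-loop-helix transcription factor best known from testis, was at 1.09, 0.912, 1.97 and 1.86 CPM in KO MTE and at 0.642, 0.961 and 0.858 CPM in KO Sham, against 1.21, 2.37, 1.97 and 1.03 CPM in WT MTE and 0.293, 0.0967, 0.0839 and 0.117 CPM in WT Sham. Every KO Sham library lay above every WT Sham library, and the MTE groups overlapped. Between genotypes, 253 genes (1.47%) differed in MTE muscle and 88 (0.511%) in Sham muscle. For Tcfl5 the Sham groups differed by 2.39 (adjusted p = 0.0394) and the MTE groups by -0.19 (adjusted p = 0.874). Tcfl5 rose in WT by 3.40 (adjusted p = 0.000146), its KO response was 0.83 (adjusted p = 0.146), and the interaction was -2.58 (95% interval -3.85 to -1.30).

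Aldh1l2, a mitochondrial enzyme of folate metabolism, was at 21.7, 19.5, 21.5 and 19.4 CPM in KO MTE and at 13.1, 13.6 and 13.3 CPM in KO Sham, against 28.5, 30.6, 34.3 and 29.0 CPM in WT MTE and 9.97, 13.8, 11.1 and 13.8 CPM in WT Sham. Here the Sham groups overlapped and the MTE groups did not. Aldh1l2 rose in both, by 0.62 in KO (adjusted p = 0.00526) and 1.33 in WT (adjusted p = 1.09e-05), and the interaction was -0.71 (95% interval -1.09 to -0.33). Csgalnact1, which starts chondroitin sulfate chains, followed the same pattern, at 14.6 to 19.7 CPM in KO MTE and 5.29 to 7.72 CPM in KO Sham, against 26.3 to 31.7 CPM in WT MTE and 4.40 to 6.66 CPM in WT Sham. Its interaction was -0.80 (95% interval -1.30 to -0.29). Ptgs2, the inducible cyclooxygenase of prostaglandin synthesis, was at 5.25 to 12.7 CPM in KO MTE and 1.19 to 2.37 CPM in KO Sham, against 14.9 to 33.9 CPM in WT MTE and 1.12 to 1.87 CPM in WT Sham. It rose in both, by 2.47 in KO (adjusted p = 0.000696) and 4.01 in WT (adjusted p = 7.61e-06), with an interaction of -1.53 (95% interval -2.54 to -0.52).

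Zfp948, a zinc finger gene, was at 16.3 to 20.0 CPM in KO MTE and 12.8 to 21.6 CPM in KO Sham, against 17.8 to 24.6 CPM in WT MTE and 9.16 to 10.4 CPM in WT Sham. It rose in WT (1.09, adjusted p = 0.00035), and its KO response was 0.16 (adjusted p = 0.51). Cdkn1c, an imprinted inhibitor of the cell cycle, was at 9.65 to 15.7 CPM in KO MTE and 16.0 to 23.7 CPM in KO Sham, against 13.4 to 24.1 CPM in WT MTE and 7.90 to 15.3 CPM in WT Sham. Neither response was called (-0.72 in KO, adjusted p = 0.0589, and 0.54 in WT, adjusted p = 0.129), and the interaction was -1.26 (95% interval -2.04 to -0.48). Also on this side were Gm4924, with an interaction of -1.15, and Ccdc191, with -0.69. Both fell in KO (adjusted p = 0.0333 and 0.000767) and had WT responses that were not called (0.40 and -0.31). For Gm4924 the KO and WT Sham groups differed by 1.44 (adjusted p = 0.015), and the MTE groups by 0.29 (adjusted p = 0.65). The interaction of Gm4924 was -0.71 without KO Sham column 3 and WT Sham 1.

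Chaperones of the endoplasmic reticulum (ER) and their regulator Xbp1 were on the lower side too. Xbp1 is the transcription factor that turns on ER genes when unfolded proteins build up. It was at 95.4, 97.9, 89.8 and 107 CPM in KO MTE and at 122, 103 and 103 CPM in KO Sham, against 120.0, 103, 111 and 117 CPM in WT MTE and 85.9, 88.6, 89.1 and 85.8 CPM in WT Sham. It rose in WT (0.37, adjusted p = 0.0132), its KO response was -0.17 (adjusted p = 0.238), and the interaction was -0.54 (95% interval -0.85 to -0.23). Ssr1, a subunit of the translocon-associated complex of the ER membrane, rose in WT (0.66, adjusted p = 0.000378), with a KO response of 0.15 (adjusted p = 0.308) and an interaction of -0.51 (95% interval -0.82 to -0.20).

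Of 21 ER chaperones and heat shock genes, 7 rose and 1 fell in KO and 13 rose in WT. Of all genes tested, 13.2% rose and 12.7% fell in KO, and 14.1% rose in WT. The median response was 0.49 in KO and 0.72 in WT. The median interaction was -0.30, and 17 of 21 members lay below 0. With 1 library left out that median ran from -0.42 to -0.22, with a jackknife SE of 0.19. At p under 0.05 were 3 members, all below 0, beside 1.65% of all genes below 0. Without KO Sham column 3 and WT Sham 1 there were 9 (of 1416, 8.22%, among all genes), and the median was -0.44. WT Sham 1 had a mean of 5.59 log2 CPM over this list, against 5.02 to 5.07 log2 CPM in the other WT Sham libraries. Without these 2 libraries 682 of the genes tested (3.96%) lay below 0 at that p.

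Manf, a secreted ER stress protein, was at 18.5, 18.8, 16.1 and 24.7 CPM in KO MTE and at 16.3, 13.9 and 17.2 CPM in KO Sham, against 24.9, 23.4, 18.2 and 24.2 CPM in WT MTE and 13.6, 9.73, 8.30 and 10.04 CPM in WT Sham. Hspa5, the chaperone BiP, was at 272, 261, 215 and 354 CPM in KO MTE and at 276, 222 and 307 CPM in KO Sham, against 326, 241, 259 and 356 CPM in WT MTE and 197, 175, 159 and 173 CPM in WT Sham. For both genes the KO Sham libraries lay above the WT Sham libraries without overlap, and the MTE groups overlapped. The genotypes differed in Sham muscle by 0.60 for Manf and 0.61 for Hspa5, and neither difference passed the threshold (adjusted p = 0.243 and 0.231). Manf rose in WT (1.12, adjusted p = 0.000483), as did Hspa5 (0.75, adjusted p = 0.00605) and Hsp90b1, the ER form of HSP90 (0.71, adjusted p = 0.00329). In KO the responses were 0.30, 0.04 and 0.07 (adjusted p = 0.233, 0.90 and 0.765). The interactions were -0.82 for Manf (95% interval -1.36 to -0.27), -0.71 for Hspa5 (95% interval -1.25 to -0.17) and -0.64 for Hsp90b1 (95% interval -1.11 to -0.18).

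The ER stress element, CCAAT and CCACG with any 9 bases between them, is the sequence at which the unfolded protein response acts on chaperone genes. The windows of Hspa5 and Hsp90b1 are shown because both genes are members at p under 0.05 that hold it. Each is the 250 bases before the RefSeq start, 5′ to 3′ on the gene's strand, with matches on either strand in capitals (RefSeq, GRCm38.p6). Hspa5 lies at chr2:34771840-34772089, plus strand, and its match begins 65 bases before the start. Hsp90b1 lies at chr10:86705445-86705694, minus strand, and its matches begin 212 and 107 bases before the start, the second on the opposite strand.
Hspa5: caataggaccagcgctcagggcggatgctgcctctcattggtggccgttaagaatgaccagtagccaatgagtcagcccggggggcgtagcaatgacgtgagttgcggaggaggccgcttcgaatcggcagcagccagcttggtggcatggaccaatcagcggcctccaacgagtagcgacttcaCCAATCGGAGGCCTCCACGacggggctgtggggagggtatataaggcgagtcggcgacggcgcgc
Hsp90b1: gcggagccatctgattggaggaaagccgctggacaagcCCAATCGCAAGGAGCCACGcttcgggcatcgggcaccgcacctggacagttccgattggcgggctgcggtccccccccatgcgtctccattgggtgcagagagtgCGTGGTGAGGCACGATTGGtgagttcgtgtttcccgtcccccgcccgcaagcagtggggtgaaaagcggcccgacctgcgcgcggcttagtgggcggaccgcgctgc
The element occurred in 37 of 32851 windows (0.113%). Of the 21 list members, 16 matched a window and 6 of these held it: Calr, Canx, Creld2, Hsp90b1, Hspa5 and Pdia6. The interactions of Calr, Canx, Creld2 and Pdia6 were -0.30, -0.36, -0.51 and -0.43 with all libraries, each with a p above 0.05. WT Sham 1 was the highest WT Sham library for Creld2 (5.32 CPM, against 2.76 to 3.0 CPM) and Pdia6 (51.6 CPM, against 30.5 to 31.0 CPM).

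**Figure D3:**
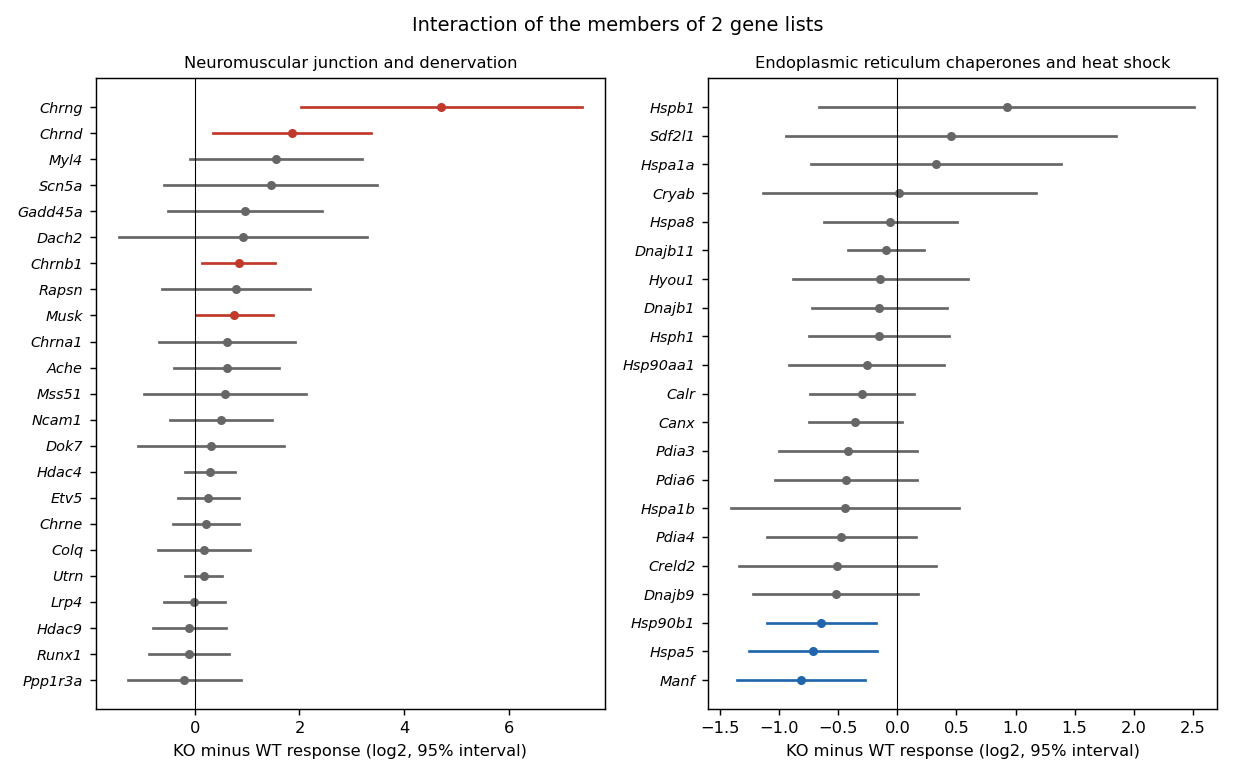
Interaction (KO minus WT overload response, log2) of the 23 neuromuscular junction and denervation genes and the 21 ER chaperone and heat shock genes, with 95% intervals from edgeR. Red marks the 4 members above 0 and blue the 3 members below 0 at an unadjusted p under 0.05, and the intervals of all other members include 0.

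Immediate early genes are transcribed within minutes of a stimulus. At p under 0.05, 4 of 18 members lay below 0 and none above, beside 1.65% and 1.86% of all genes. Of the 18, 6 rose in KO and 13 in WT, beside 13.2% and 14.1% of all genes. Ier3 was at 9.27, 7.16, 8.38 and 10.1 CPM in KO MTE and at 6.46, 8.22 and 5.15 CPM in KO Sham, against 12.8, 15.6, 11.1 and 13.5 CPM in WT MTE and 5.64, 4.83, 5.91 and 4.64 CPM in WT Sham. The WT groups stood far apart and the KO groups overlapped, for an interaction of -0.94 (95% interval -1.48 to -0.40). Nr4a2, an orphan nuclear receptor, was at 2.43 to 3.53 CPM in KO MTE and 2.07 to 3.98 CPM in KO Sham, against 3.44 to 4.84 CPM in WT MTE and 0.851 to 2.10 CPM in WT Sham, with an interaction of -1.501 (95% interval -2.37 to -0.63), or -0.95 without KO Sham column 3, its highest Sham library, and WT Sham 1. Its relative Nr4a3 had an interaction of -1.91 (95% interval -3.67 to -0.16), and -1.56 without them, where the interval held 0. Fosb, a subunit of the transcription factor AP-1, rose in WT (1.90, adjusted p = 0.00987), with a KO response of -0.22 (adjusted p = 0.764) and an interaction of -2.11 (95% interval -3.57 to -0.66). KO Sham column 1 had the highest Sham value of Fosb, 1.70 CPM, and without it the interaction was -0.99, with an interval that held 0. Fos, the best known member, had an interaction of 0.02 (95% interval -1.29 to 1.33). The list's median was -0.16, and -0.52 without KO Sham column 3 and WT Sham 1. With 1 library left out it ran from -0.40 to -0.05, with a jackknife SE of 0.36.

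Extracellular matrix genes rose in both genotypes. Of 40 genes, 34 rose in KO and 37 in WT, beside 13.2% and 14.1% of all genes, and none fell. The median response was 2.42 in KO and 2.71 in WT. The interaction lay below 0 for 36 of 40 genes, with a median of -0.33. At p under 0.05, 2 genes lay below 0, beside 1.65% of all genes. With 1 library left out the median ran from -0.69 to -0.09, with a jackknife SE of 0.56. Without the 2 libraries the median was -0.78. Then 11 of 40 lay below 0 at p under 0.05, beside 3.96% of all genes, and none above. Cthrc1, a secreted protein of injured tissue, was at 46.6, 41.4, 68.2 and 60.0 CPM in KO MTE and at 4.25, 3.54 and 1.29 CPM in KO Sham, against 74.8, 132, 91.5 and 53.2 CPM in WT MTE and 1.17, 2.38, 1.13 and 3.11 CPM in WT Sham, with an interaction of -1.37 (95% interval -2.55 to -0.20). Adam12, a membrane metalloprotease, had an interaction of -1.01 (95% interval -1.99 to -0.02). Without KO Sham column 1 these values were -1.06 and -0.63, and both intervals held 0. Postn, periostin, rose by 4.53 in KO and 5.37 in WT (adjusted p = 0.000115 and 5.33e-06), with an interval of the interaction from -2.01 to 0.33.

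Oxidative phosphorylation subunits, the nuclear-encoded parts of the respiratory chain, had interactions above 0 almost throughout. Of 77 subunits, 21 fell and none rose in KO, and 45 fell and 1 rose in WT. Of all genes tested, 12.7% fell and 13.2% rose in KO, and 11.2% fell and 14.1% rose in WT. The median response was -0.19 in KO and -0.51 in WT. The interaction lay above 0 for 75 of 77 genes with a median of 0.31, and without KO Sham column 3 and WT Sham 1 for 70 of 77 with the same median of 0.31. With 1 library left out the median ran from 0.24 to 0.38, with a jackknife SE of 0.16. At p under 0.05 were 2 genes, both above 0, beside 1.86% of all genes above 0. Without the 2 libraries there were 24, when 4.26% of all genes lay above 0 at that p. Ndufb9, a subunit of complex I, was at 179, 223, 185 and 166 CPM in KO MTE and at 227, 227 and 210.2 CPM in KO Sham, against 161, 158, 146 and 140.1 CPM in WT MTE and 195, 249, 274 and 246 CPM in WT Sham, for an interaction of 0.44 (95% interval 0.04 to 0.84). Sdhb, a subunit of complex II, had an interaction of 0.55 (95% interval 0.02 to 1.07), and 0.44 without the 2 libraries, where the interval held 0. With all libraries the 15 mitochondrially encoded genes did not share this: their median interaction was -0.38, and 2 of 15 lay above 0. Without the 2 libraries their median was 0.59 and 15 of 15 lay above 0, 5 of them at p under 0.05.

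Macrophage markers and interferon-stimulated genes changed sign with the same 2 libraries. With all libraries the interaction of the macrophage markers was above 0 for 24 of 24 genes (median 1.59), with 0 at p under 0.05. Without KO Sham column 3 and WT Sham 1 it was above 0 for 1 of 24 (median -0.55). Then 4 of 24 lay below 0 at p under 0.05, beside 3.96% of all genes. Their summed level was 1241 to 1457 CPM in KO MTE and 193 to 414 CPM in KO Sham, against 1756 to 2406 CPM in WT MTE and 370.4 to 4452 CPM in WT Sham, the highest being WT Sham 1. No macrophage marker was at 0 in any library. The KO MTE libraries lay below the WT MTE libraries without overlap. Of 33 interferon-stimulated genes, 29 lay above 0 with all libraries (median 0.94), and 2 of 33 without the 2 (median -0.68). At p under 0.05 there were 0 of them with all libraries, and 11 below 0 without the 2. The part of these cells in the interactions of other genes was not tested. The lysosomal enzyme gene Gusb was the only gene that edgeR called without the 2 libraries (0.0058% of those tested), with an interaction of -1.94 (adjusted p = 0.00611). It was at 42.3 to 55.5 CPM in KO MTE and 28.0 to 61.2 CPM in KO Sham, against 31.8 to 38.9 CPM in WT MTE and 33.2, 8.67, 8.30 and 10.4 CPM in WT Sham. WT Sham 1 was at the WT MTE level, and with all libraries the interaction was -0.995 (95% interval -2.16 to 0.16).

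**Figure D4:**
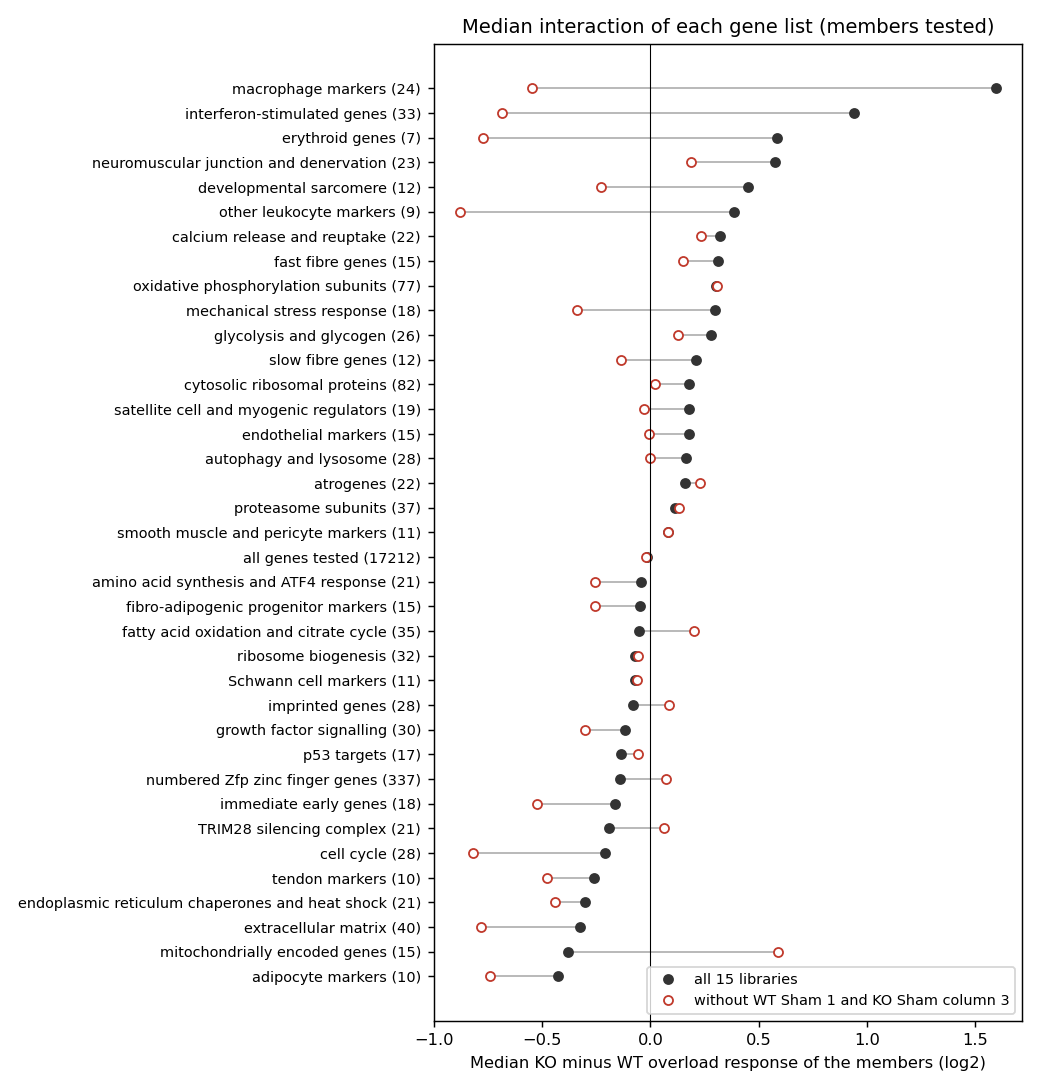
Median interaction (KO minus WT overload response, log2) of each gene list, with the number of members tested in brackets; filled points use all 15 libraries and open points leave out KO Sham column 3 and WT Sham 1. The macrophage and interferon-stimulated lists cross 0 between the filled and the open points, while the oxidative phosphorylation subunits stay at 0.31 and the ER chaperones and extracellular matrix stay below 0.

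Other groups gave few genes at p under 0.05 with all libraries. Cell cycle genes rose in both, 16 of 28 in KO and 23 of 28 in WT, beside 13.2% and 14.1% of all genes. Their median interaction was -0.21, with 0 members at p under 0.05. Without the 2 libraries the median was -0.82 and 28 of 28 members lay below 0. Of these, 5 did so at p under 0.05, beside 3.96% of all genes. Among 12 developmental sarcomere genes, 9 rose in KO and 9 in WT, and the extremes lay on opposite sides: Tnni1, above, and Actc1, the cardiac actin that muscle uses before birth. Actc1 was at 31.0 to 73.4 CPM in KO MTE and 13.4 to 83.0 CPM in KO Sham, against 22.5 to 67.0 CPM in WT MTE and 9.06 to 18.7 CPM in WT Sham. Its interaction was -1.75 (95% interval -3.23 to -0.28), and -0.93, with an interval that held 0, without KO Sham column 2. Of 19 satellite cell and myogenic genes, Cdh15, the M-cadherin of muscle stem cells, alone had a p under 0.05 (1.29, 95% interval 0.25 to 2.34). Without the 2 libraries Cdh15 was at 0.69, with an interval that held 0, and the list median was -0.03, against 0.18 with all libraries. Of 22 atrogenes, 30 growth factor genes, 32 ribosome biogenesis genes and 37 proteasome subunits, 0 had one. Without the 2 libraries 4 atrogenes lay above 0 at that p, as did 1 growth factor gene, while 3 growth factor genes, 1 ribosome biogenesis gene and 1 proteasome subunit lay below. Rps20, of 82 ribosomal proteins, Pgk1, of 26 glycolysis and glycogen genes, and Lep, of 10 adipocyte markers, were the only members of their lists with one. Without the 2 libraries the intervals of Rps20 and Lep held 0, and 7 glycolysis and glycogen genes lay above 0 and 1 below at p under 0.05. Of the ribosomal proteins 66 of 82 lay above 0 with all libraries and 42 of 82 without the 2. Chac1, a target of the stress factor ATF4, fell in both, by 1.76 in KO (adjusted p = 0.00488) and 2.96 in WT (adjusted p = 7.99e-05), with an interaction of 1.19 (95% interval 0.12 to 2.27). The KO and WT Sham groups differed by -2.34 for Chac1 (adjusted p = 0.0128). Of 21 amino acid synthesis and ATF4 genes it alone had a p under 0.05, and 13 of the 21 lay below 0. The list median was -0.04, and -0.26 without the 2 libraries, when 1 member lay above and 5 below 0 at that p.

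Genes that TRIM28 is known to bear on were compared last. Of 337 numbered zinc finger genes, 98 fell and 13 rose in KO, and 53 fell and 17 rose in WT. Of all genes, 12.7% fell and 13.2% rose in KO, and 11.2% fell and 14.1% rose in WT. The median interaction of the zinc finger genes was -0.14, with 10 below and 2 above 0 at p under 0.05 (all genes 1.65% and 1.86%). Without KO Sham column 3 and WT Sham 1 it was 0.07, with 1 below and 11 above (all genes 3.96% and 4.26%). Of 28 imprinted genes, 3 had a p under 0.05: Cdkn1c, below, and Peg10 and Snrpn, above. The median of the imprinted genes was -0.08, and 0.09 without the 2 libraries, when 5 lay above and 1 below 0 at that p. Peg10, which derives from a retroelement, was at 14.3, 31.8, 41.2 and 33.0 CPM in KO MTE and at 5.20, 5.87 and 9.13 CPM in KO Sham, against 6.79, 10.1, 6.57 and 6.89 CPM in WT MTE and 3.40, 4.29, 3.48 and 2.88 CPM in WT Sham. It was higher in KO under load (1.98, adjusted p = 0.00375), and its interaction was 1.06 (95% interval 0.17 to 1.94). Of 21 genes of the silencing complex, Trim28 and Pphln1 (-0.42, 95% interval -0.75 to -0.08) had a p under 0.05, and neither had one without KO Sham column 3 and WT Sham 1.

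Genes named earlier for their change with TRIM28 loss in Sham muscle, in these same libraries, were followed under load. That choice makes their genotype difference no independent evidence. The Sham difference also enters the interaction with a minus sign, so the choice can move their interactions against the sign of that difference, and the values are given as a description. Esr1, the estrogen receptor, was higher in KO by 2.68 in MTE muscle (adjusted p = 1.02e-05) and 2.40 in Sham muscle (adjusted p = 5.92e-05), and its interaction interval, -0.30 to 0.87, lay inside a 2-fold difference. Mss51, a muscle gene of mitochondrial function, differed by -3.81 in MTE muscle (adjusted p = 0.00375) and -4.39 in Sham muscle (adjusted p = 0.00473), with an interval from -0.98 to 2.13 around an interaction of 0.57, which was 0.95 without the 2 Sham libraries. Zfp873 was higher in KO in both (1.48 and 1.92), with an interaction of -0.44 (95% interval -1.09 to 0.21). Mettl21c, a lysine methyltransferase of muscle, was at 7.70, 13.8, 17.4 and 10.7 CPM in KO MTE and at 5.13, 1.59 and 5.82 CPM in KO Sham, against 44.5, 31.5, 34.9 and 51.0 CPM in WT MTE and 85.0, 40.4, 34.7 and 46.3 CPM in WT Sham. It rose in KO (1.59, adjusted p = 0.0151), its WT response was -0.35 (adjusted p = 0.519), and the interaction was 1.94 (95% interval 0.76 to 3.12). The genotype difference was thus -1.70 under load (adjusted p = 0.035) and -3.64 in Sham muscle (adjusted p = 0.00225).

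The strongest overload genes, 8 per direction in each genotype by p, came to 28 genes, since Sfrp1, Pdpn, Mfap5 and Inmt were in both sets. Of the 16 strongest in WT, 7 had an interaction p under 0.05, 7 of them with the larger response in WT. Of the 16 strongest in KO, 5 had one, 5 of them with the larger response in KO, so these follow the genotype in which they were picked. Mfap5, a microfibril protein, rose by 2.60 in KO (adjusted p = 5.76e-05) and 2.66 in WT (adjusted p = 3.81e-06), with an interaction interval from -0.67 to 0.54. Inmt, a methyltransferase, fell by 2.64 in KO (adjusted p = 5.76e-05) and 2.86 in WT (adjusted p = 4.01e-06), with an interval from -0.45 to 0.88. Mstn, myostatin, the secreted brake on muscle growth, fell by 1.49 in KO (adjusted p = 0.00756) and 1.68 in WT (adjusted p = 0.00211). Igf1, a growth factor for muscle, rose by 2.22 in KO (adjusted p = 0.000416) and 2.61 in WT (adjusted p = 3.14e-05). The interaction intervals ran from -0.81 to 1.19 for Mstn and from -1.22 to 0.44 for Igf1. Mstn depended on the 2 Sham libraries: its interaction was 0.19 with all libraries and 0.99 without KO Sham column 3 and WT Sham 1, where the interval left out 0. Without the same libraries Mfap5 was at -0.34, against -0.07 with all, Inmt at 0.09, against 0.22, and Igf1 at -0.68, against -0.39, and these intervals held 0.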

How the data were processed

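RNA of 15 libraries was analysed (total RNA, ribosomal RNA depleted, stranded kit, per the labels' protocols). Expected counts (estimated counts per gene, not whole by construction) are the values the authors deposited, and 90.9% of them lie within 0.01 of a whole number. STAR, RSEM, edgeR and the build GRCm38 are named in the submitters' processing notes. The sources used here give neither versions nor whether strand entered the counting, and antisense genes may therefore share reads. Interaction p-values that the authors deposited (2-way ANOVA) were used as given. In that table the FDR columns for WT Sham against WT MTE and for WT MTE against KO MTE are identical in 100.0% of genes, and neither was used.

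Estimated counts were rounded and fitted with edgeR 4.0.16 (R 4.3.3): filterByExpr, TMM scaling, 4 group means, robust quasi-likelihood, Benjamini-Hochberg adjustment. SE is the log2 value over the square root of F. CPM are scaled counts, M stands for mega. DESeq2 1.42.0, limma 3.58.1 and sva 3.50.0 gave alternatives. The fit was tested on simulated data. Within a group no libraries were copies (chi-square per gene at least 36.6). KO Sham has 3 columns for 4 labelled samples, and these were not matched to samples by number. The labels' numbers were not used to pair libraries.

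The members and lists were chosen with earlier results of these data known. Named were the 12 genes of smallest interaction p per direction (mean CPM at least 1), up to 3 per list under p 0.05, the 8 strongest overload genes per direction and genotype, genes called by other tools, and genes named earlier. Musk, Nr4a3, Gusb and list members given for contrast (Chrna1, Chrne, Calr, Canx, Creld2, Pdia6, Myh7 and Fos) were chosen after their values were seen.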

Additional observations from a re-analysis of the deposited data

Results flagged for a closer look

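In groups of 4 libraries, the highest or lowest library was flagged where its gap to the next exceeded the share of the group's range that is Dixon's 95% critical value, which chance alone gives in about 1 in 20 groups. Of 348 groups tested, 24 were flagged. No explanation was tested.

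WT Sham 1 stood apart most often. Its macrophage list mean was 6.06 log2 CPM (2.68 to 3.05 in the other 3 WT Sham libraries), its interferon-stimulated list mean 5.57 (2.51 to 2.66), its ER chaperone list mean 5.59 (5.02 to 5.07) and its mitochondrially encoded list mean 9.44 (10.5 to 10.7), with a mitochondrial share of counts of 6.95% (13.3% to 14.4%). Among genes, Gusb was at 33.2 CPM (8.30 to 10.4), Chrna1 at 55.0 CPM (20.96 to 25.7), Pdia6 at 51.6 CPM (30.5 to 31.0), Creld2 at 5.32 CPM (2.76 to 2.997), Chrng at 1.30 CPM (0.294 to 0.352) and Tcfl5 at 0.293 CPM (0.0839 to 0.117). In the same library Klhl33 was low at 61.4 CPM (158 to 173), as was Mstn at 40.6 CPM (96.5 to 102).

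KO MTE 4 was high for Chrng at 64.8 CPM (4.01 to 13.6 in the other KO MTE libraries) and for Myog at 86.8 CPM (23.6 to 34.2), the gamma subunit and a regulator of the muscle acetylcholine receptor. Mstn was at 37.1 CPM in KO MTE 3 (19.6 to 21.2), and the fast fibre list mean was 11.6 log2 CPM in KO MTE 1 (11.1 to 11.2). In WT MTE 2, Peg10 was at 10.1 CPM (6.57 to 6.89 in the other WT MTE libraries) and Esr1 at 37.9 CPM (27.0 to 27.6). In WT Sham 4, Gm13387 was at 0.587 CPM (0.838 to 0.851) and the smooth muscle and pericyte list mean at 5.39 log2 CPM (5.07 to 5.11). The p53 target list mean was 3.93 log2 CPM in WT Sham 2 (4.30 to 4.34). Total counts were low in WT MTE 4 at 26.5 M (38.2 M to 40.05 M) and in WT Sham 3 at 26.6 M (38.2 M to 39.3 M).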

How the results depend on the processing

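No edgeR or voom setting with all libraries called an interaction, whereas DESeq2 called 10 genes, all higher. Leaving out 1 library gave 0 to 1 higher and 0 lower calls, and dropping KO Sham column 3 and WT Sham 1 gave 0 higher and 1 lower. The 27 genes whose interactions were recomputed under 23 alternatives kept their sign in every value obtained (Akain1, Cxcr6, Gm13387 and Gm3776 gave none under the stricter filter). Of these values, 11 passed the threshold under an alternative (10 by DESeq2, and Tspan13 without KO MTE 1). Most of the genes were picked for a small interaction p in the same libraries, or for a DESeq2 call. The alternatives reuse those libraries, so the kept signs and the DESeq2 calls are a description and no independent evidence.

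Counts of overload calls depended on single libraries, among them Sham libraries and KO MTE 2 and KO MTE 4. KO calls ranged from 1278 to 3136 higher and 953 to 2718 lower with 1 library left out, lowest without KO Sham column 3. Lower KO calls numbered 1305 without KO MTE 2 and 1381 without KO MTE 4. WT calls ranged from 1742 to 3674 higher and from 1246 to 3021 lower, highest without WT Sham 1, with 1246 lower without WT Sham 2. Genes called in both ranged from 1908 without KO Sham column 3 to 4683 without WT Sham 1. With sample quality weights voom called 3517 higher in KO, and 4832 higher and 3629 lower in WT. Without KO Sham column 3 and WT Sham 1 the WT calls were 4164 higher and 3492 lower. Of the 605 genes at an unadjusted interaction p under 0.05, 317 (52.4%) stayed there without these 2 libraries, among 1416. All 317 had the same sign, but the fits share their other libraries, so a change of sign could hardly occur. The same omission moved the median interaction of developmental sarcomere genes to -0.23, mechanical stress genes to -0.34, growth factor genes to -0.30, macrophage markers to -0.55, interferon-stimulated genes to -0.68, erythroid genes to -0.77, the silencing complex to 0.062, numbered zinc finger genes to 0.071, fatty acid oxidation genes to 0.20, imprinted genes to 0.09, other leukocyte markers to -0.88 and mitochondrially encoded genes to 0.59. The cause was not tested.

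No paired analysis was possible because the 3 KO Sham columns could not be matched by number to the 4 labelled samples, and the interaction needs that group. The precision is set by 3 to 4 libraries a group and a common dispersion of 0.0946.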

Other observations

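For the lists that follow, the shares of all genes tested were 13.2% higher and 12.7% lower in KO, and 14.1% higher and 11.2% lower in WT. Without KO Sham column 3 and WT Sham 1, 4.26% of all genes lay above 0 and 3.96% below at an unadjusted interaction p under 0.05. Of 22 calcium release and reuptake genes of muscle, 3 rose and 6 fell with overload in KO, and 3 rose and 11 fell in WT. Their median interaction was 0.32, and 0.23 without KO Sham column 3 and WT Sham 1, with 0 members at an unadjusted p under 0.05 (2 above and 1 below without them). Fatty acid oxidation and citrate cycle genes fell in both genotypes, 26 of 35 in KO and 22 of 35 in WT, with a median interaction of -0.05. Without the same 2 libraries that median was 0.20, with 29 of 35 genes above 0, against 16 of 35 with all libraries, and 4 above 0 at an unadjusted p under 0.05. Of 18 mechanical stress genes, 13 rose in KO and 13 in WT, and 0 had an interaction p under 0.05 (1 above and 2 below without the 2 libraries). Atrogenes, the degradation genes of wasting muscle, fell in 9 of 22 cases in KO and 8 of 22 in WT, and none rose.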
